A study of Mus musculus with 24 samples.

Results

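The expression of 10 keratin genes was examined in the kidneys of *megabladder* mice, a line in which a mutation (mgb) leaves the bladder without proper smooth muscle, so that urine is retained and the renal pelvis distends (hydronephrosis). The genes, *Krt5*, *Krt7*, *Krt8*, *Krt13*, *Krt14*, *Krt15*, *Krt17*, *Krt18*, *Krt19* and *Krt20*, were chosen by name as the keratins of the basal, intermediate and luminal layers of the urothelium, the epithelium that lines the renal pelvis, ureter and bladder. They are 10 of the 27971 genes that were measured above the detection filter, and all 10 passed it. Of these 27971, 16505 had a RefSeq gene name, and each accession without one was counted as a gene. Total RNA of 24 whole kidneys, each on its own single-dye array, came from 6 control kidneys of the mgb+/+ genotype and from 18 mgb-/- kidneys, of which 7 had mild, 5 moderate and 6 severe hydronephrosis. The grades were set by renal ultrasound from the share of parenchyma that was preserved. All mice were age-matched males, labelled as young adults and a few weeks old in the study's methods, and the labels name no agent and no further allele. The grade was observed, not assigned. The labels do not say which kidneys shared a mouse, so each kidney was treated as 1 sample, and the p-values measure only the spread between these kidneys. Levels are given on the log2 scale relative to the 75th percentile of the same array, so that 0 is the level of that percentile and 1 unit is a 2-fold difference. Levels of different genes were read by different probes and are not comparable with each other.

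Keratins are the intermediate filament proteins of epithelia. A filament is built from pairs of a type I and a type II chain, and the partner sets change with the kind and the layer of an epithelium. *Krt5* (type II) and *Krt14* (type I) form the filaments of basal cells in stratified epithelia, *Krt8* (type II) and *Krt18* (type I) are the pair of simple epithelia and are found in renal tubules and collecting ducts, and *Krt20* marks the umbrella cells at the surface of the urothelium. *Krt13*, whose usual partner is *Krt4*, belongs to intermediate cells, *Krt15* and *Krt17* are further type I chains of basal cells, and *Krt7* and *Krt19* occur in several urothelial layers and in ducts. In the RefSeq gene order (assembly GRCm38.p6), the type I members other than *Krt18* lie on chromosome 11, where *Krt15* stands between *Krt13* and *Krt19*, and the type II members lie on chromosome 15, where *Krt8* and *Krt18* are direct neighbours.

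The promoters of the members of both filament pairs and of *Krt20* are printed because the pairs are compared below as partners and *Krt20* changed most. They were copied from RefSeq (GRCm38.p6), which held 7 of the 10 members, and run 5′ to 3′ on the strand of the gene over the 250 bases before the transcription start. The windows are chr15:101712906-101713155 (- strand) for *Krt5*, chr11:100206031-100206280 (- strand) for *Krt14*, chr15:102004343-102004592 (- strand) for *Krt8*, chr15:102027966-102028215 (+ strand) for *Krt18* and chr11:99438154-99438403 (- strand) for *Krt20*. Capitals mark matches, on either strand, to the TATA box TATAAA, the Sp1 box GGGCGG, the AP-1 site TGANTCA and the AP-2 core GCCNNNGGC.
Krt5: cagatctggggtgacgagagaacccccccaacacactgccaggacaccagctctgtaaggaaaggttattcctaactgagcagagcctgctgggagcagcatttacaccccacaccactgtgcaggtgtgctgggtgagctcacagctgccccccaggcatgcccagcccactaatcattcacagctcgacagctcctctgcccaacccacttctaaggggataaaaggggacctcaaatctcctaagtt
Krt14: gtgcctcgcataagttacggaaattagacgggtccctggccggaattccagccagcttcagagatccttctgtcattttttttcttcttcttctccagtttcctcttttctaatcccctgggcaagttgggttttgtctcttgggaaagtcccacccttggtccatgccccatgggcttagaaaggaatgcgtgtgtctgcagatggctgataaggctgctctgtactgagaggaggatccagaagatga
Krt8: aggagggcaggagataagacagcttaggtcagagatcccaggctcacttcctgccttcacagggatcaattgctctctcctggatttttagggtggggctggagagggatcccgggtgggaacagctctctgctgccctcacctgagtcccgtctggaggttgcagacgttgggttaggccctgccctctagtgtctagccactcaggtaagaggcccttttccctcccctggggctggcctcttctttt
Krt18: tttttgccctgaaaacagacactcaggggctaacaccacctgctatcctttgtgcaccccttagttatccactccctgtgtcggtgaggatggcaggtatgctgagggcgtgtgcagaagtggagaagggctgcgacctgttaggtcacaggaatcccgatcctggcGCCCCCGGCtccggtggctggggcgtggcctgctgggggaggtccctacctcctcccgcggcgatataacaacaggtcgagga
Krt20: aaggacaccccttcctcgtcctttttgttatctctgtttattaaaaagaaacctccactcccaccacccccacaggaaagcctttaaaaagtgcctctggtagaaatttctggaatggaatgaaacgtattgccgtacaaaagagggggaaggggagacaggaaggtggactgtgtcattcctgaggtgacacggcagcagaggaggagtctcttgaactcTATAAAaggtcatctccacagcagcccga
TATAAA occurred in 12.4%, GGGCGG in 32.7%, TGANTCA in 6.75% and GCCNNNGGC in 13.7% of the 32851 promoter windows of this length. *Krt20* held TATAAA from base 29 to base 24 before the start, and *Krt18* held GCCNNNGGC from base 83 to base 75. None of these letters was found in the windows of *Krt5*, *Krt14* and *Krt8*. A match is a description of the letters and not a binding site.

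The arrays lay on 3 slides, each with 2 control and 6 mgb-/- kidneys. The scanner software judged 55.1% to 70.7% of the probes of an array to be well above background. No spot was saturated, and the correlation between any 2 arrays ran from 0.921 to 0.991. As markers of the tissue, the tubule genes *Lrp2* (proximal tubule), *Umod* (thick limb) and *Aqp2* (principal cells) were well above background on all 24 arrays. So were 9 of the 10 keratins. *Krt17* was well above background on 1 of 6 control, 0 of 7 mild, 4 of 5 moderate and 4 of 6 severe kidneys. Because whole kidneys were measured, fewer cells of a type and less RNA per cell cannot be told apart in any of the values.

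Against control, 9 of the 10 keratins were called higher in severe hydronephrosis, 3 in moderate and none in mild hydronephrosis. A gene was called at a Benjamini-Hochberg adjusted p under 0.05 in limma and a change of at least 2-fold. In all mgb-/- kidneys together, 4 of the 10 were called higher, *Krt20*, *Krt19*, *Krt14* and *Krt18*, where 1.82% of all genes tested were called higher and 1.26% lower. In mild kidneys 0 of 10 were called (2 had an unadjusted p under 0.05 in limma), beside 1.15% of all genes. In moderate kidneys 3 were called, *Krt20*, *Krt19* and *Krt14*, beside 0.529% of all genes. In severe kidneys 9 of 10 were called higher, beside 2.99% of all genes. *Krt8*, the other one, passed the p threshold under 2-fold, and *Krt17*, one of the 9, was measured well above background on 1 of 6 control kidneys. All 10 mean changes were above 0 in severe and in moderate kidneys. No keratin was called lower in any comparison. The median change of the 10 members against control was 0.55 for the mild grade, 1.68 for moderate and 2.99 for severe, where the median of all genes tested was 0.011, -0.026 and 0.019. The count over all mgb-/- kidneys fell to 2 without control kidney 2 or 3 and to 1 without control kidney 4. In moderate kidneys it fell to 0 without control kidney 1, 2, 3, 4 or 6 or moderate kidney 1, 3 or 4, and to 1 without control kidney 5 or mild kidney 6 or 7. Without mild kidney 5 or moderate kidney 5, *Krt13* was also called over all mgb-/- kidneys (adjusted p 0.0384 to 0.0445), and without moderate kidney 5, the lowest of its group for most members, *Krt18* was also called in moderate kidneys (adjusted p = 0.024).

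**Figure D1:**
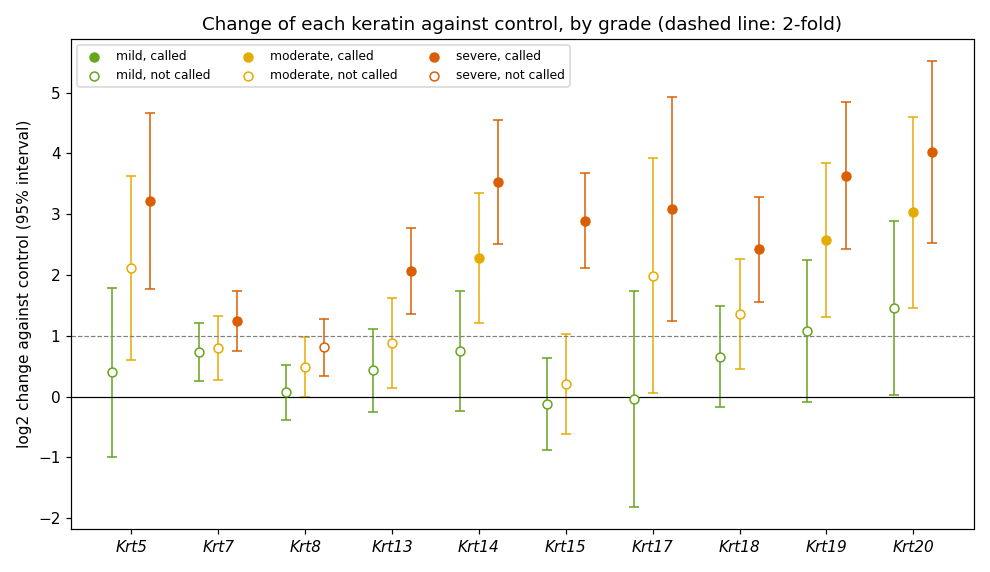
Log2 change of each keratin against the 6 control kidneys in mild (green, n = 7), moderate (yellow, n = 5) and severe (orange, n = 6) kidneys, with the 95% interval of the limma fit; filled points were called and the dashed line marks 2-fold. Filled points are 0 of 10 in mild, 3 of 10 in moderate and 9 of 10 in severe kidneys.

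Among the mgb-/- kidneys, severe against mild called 5 keratins higher, *Krt15*, *Krt14*, *Krt19*, *Krt18* and *Krt13*, where 0.454% of all genes were called higher and 0.00715% lower. *Krt15* was the single keratin called in severe against moderate kidneys, and it was also the 1 gene called higher there of all 27971 tested (0.00358%). Moderate against mild kidneys called 0 of 10, although 5 had an unadjusted p under 0.05 in limma, and 0% of all genes were called higher. A straight slope on the grade, coded 1, 2 and 3 over the 18 mgb-/- kidneys and called without a minimum fold, passed for *Krt15* and *Krt14*, beside 0.232% of all genes. The slope of *Krt15* was 1.48 per grade (SE 0.24, adjusted p = 0.036) and was not called in 11 of the 18 fits that each left out 1 kidney, without mild kidney 1, 4, 5, 6 or 7, moderate kidney 3 or severe kidney 1, 2, 3, 4 or 5 (adjusted p 0.0517 to 0.117). That of *Krt14* was not called in 13 of 18, without those kidneys or moderate kidney 1 or 2 (adjusted p 0.0501 to 0.117). Without mild kidney 2 or moderate kidney 5 the slopes of *Krt13* and *Krt19* passed, and without moderate kidney 5 that of *Krt18*. With each array scaled by its median in place of the 75th percentile, the median of all genes moved to -0.146 over all mgb-/- kidneys and to -0.154 in severe against control kidneys. The genes called were then 344 higher and 527 lower, and 538 higher and 797 lower, in place of 510 and 353, and of 835 and 483. These comparisons share kidneys and are not independent of each other.

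**Figure D2:**
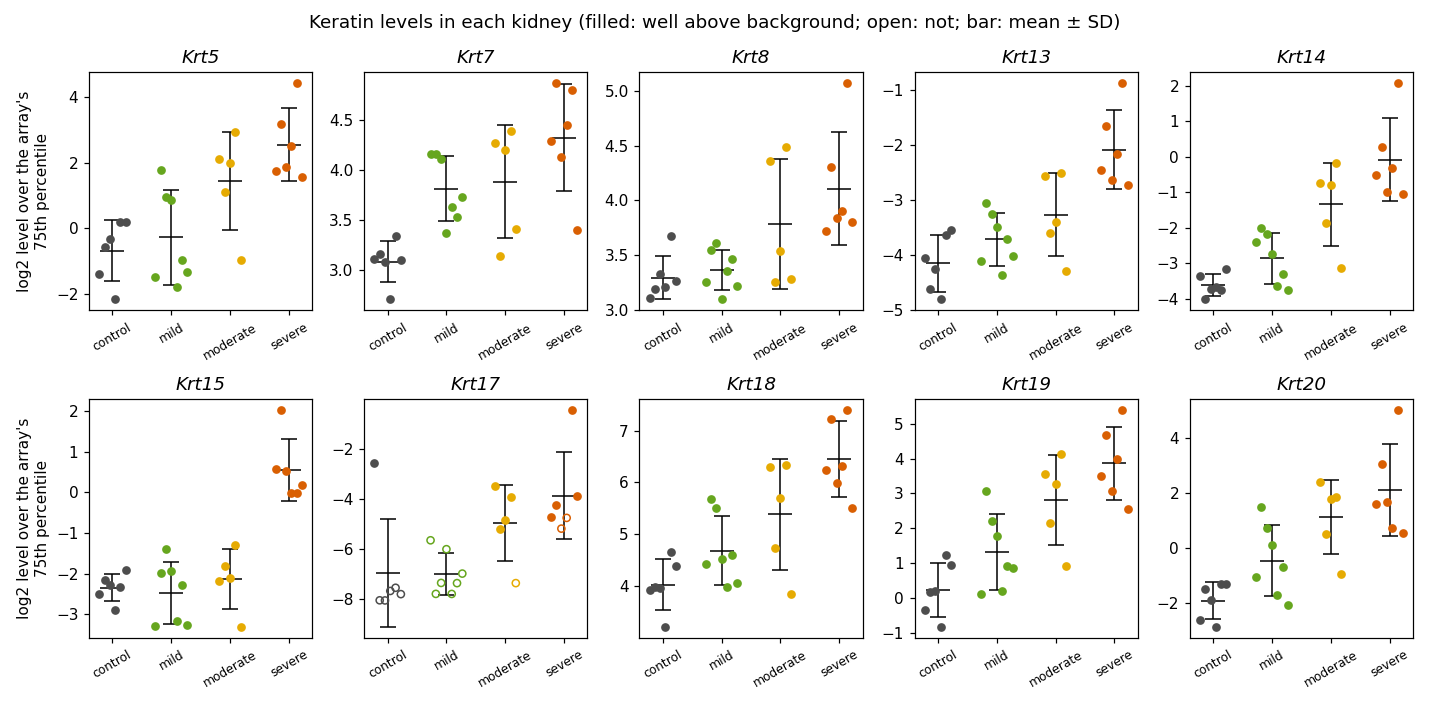
Log2 level of each keratin relative to the array's 75th percentile in every kidney of the 4 groups (6, 7, 5 and 6 kidneys), with the mean ± SD; filled points were well above background and open points were not. *Krt15* overlaps between control, mild and moderate kidneys and lies higher in all 6 severe kidneys, whereas the group means of *Krt14*, *Krt19* and *Krt20* rise from control through mild and moderate to severe.

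Of the basal keratins, *Krt14* ran from -4.01 to -3.16 (median -3.70) in control kidneys, -3.75 to -2.01 (median -2.72) in mild kidneys and -1.05 to 2.09 (median -0.41) in severe kidneys. The 5 moderate kidneys had -0.74, -1.86, -0.78, -0.17 and -3.12. All moderate and severe kidneys lay above all control kidneys, and the severe kidneys also lay above all mild ones. The change against control was 2.28 (SE 0.52, adjusted p = 0.0344) in moderate kidneys and 3.53 (SE 0.49, adjusted p = 0.000175) in severe kidneys, which is 11.5-fold, while mild kidneys differed by 0.75 (SE 0.47, adjusted p = 0.391). Severe kidneys exceeded mild kidneys by 2.78 (SE 0.47, adjusted p = 0.00656). The slope was 1.39 per grade (SE 0.26, adjusted p = 0.0373). The call in moderate kidneys was lost when any 1 control kidney or moderate kidney 1, 3 or 4 was left out (adjusted p 0.0525 to 0.136), whereas that in severe against control kidneys held in all 37 alternatives.

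*Krt5*, the type II partner of *Krt14*, had levels of -2.16 to 0.21 (median -0.45) in control, -1.78 to 1.79 (median -0.95) in mild and 1.55 to 4.42 (median 2.17) in severe kidneys. The moderate kidneys stood at 2.12, 1.09, 1.97, 2.93 and -0.96. The mild kidneys fell into 3 values above all controls and 4 values within the control range, and 4 of the 5 moderate kidneys and all severe kidneys exceeded the highest control. Against control, *Krt5* was higher by 3.22 (SE 0.69, adjusted p = 0.00648) in severe kidneys, or 9.29-fold, and this call held in all 37 alternatives. The differences of 2.11 (SE 0.73, adjusted p = 0.13) in moderate and 0.40 (SE 0.67, adjusted p = 0.81) in mild kidneys did not pass, nor did that of 2.81 (SE 0.67, adjusted p = 0.0606) between severe and mild kidneys. Without moderate kidney 5, the lowest of its group, moderate against control passed (2.71, adjusted p = 0.0351). Severe against mild passed without mild kidney 2, mild kidney 3, moderate kidney 5 or severe kidney 6 (adjusted p 0.0192 to 0.0465). The second, dimmer *Krt5* probe gave 2.70 (SE 0.67, adjusted p = 0.0129) in severe against control kidneys.

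*Krt15*, a type I keratin of basal cells, was high in severe kidneys alone. Control kidneys ran from -2.90 to -1.92 (median -2.31), mild kidneys from -3.30 to -1.39 (median -2.28), and the moderate kidneys had -2.18, -1.80, -2.11, -1.30 and -3.31. The 6 severe kidneys ran from -0.023 to 2.03 (median 0.35), so that the lowest severe kidney was above the highest kidney of every other group. Mild and moderate kidneys overlapped control kidneys throughout, with differences of -0.13 (SE 0.36, adjusted p = 0.904) and 0.21 (SE 0.40, adjusted p = 0.831), whose 95% intervals were -0.88 to 0.63 and -0.61 to 1.03. Severe kidneys were higher by 2.89 (SE 0.38, adjusted p = 0.000136) than control, by 3.02 (SE 0.36, adjusted p = 0.000398) than mild and by 2.68 (SE 0.40, adjusted p = 0.0233) than moderate kidneys, which corresponds to 7.43-fold, 8.1-fold and 6.42-fold. The call against moderate kidneys was lost without moderate kidney 1, moderate kidney 5 or severe kidney 3 (adjusted p 0.0631 to 0.109, change 2.39 to 2.69), with arrays scaled by their median, with the slide as a block, and in the fit of severe and moderate kidneys alone (adjusted p 0.0772 to 0.543). Scored against mild kidneys, the call was lost only when those 2 groups were fitted alone (adjusted p = 0.07).

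*Krt17*, a type I keratin induced in stressed and basal epithelium, was measured least well. Of the control kidneys, 5 lay between -8.05 and -7.54, not well above background, while control kidney 1 stood at -2.56. Mild kidneys, none of them well above background, ran from -7.79 to -5.64 (median -7.35). The moderate kidneys had -3.47, -5.20, -4.84, -3.91 and -7.35, and severe kidneys ran from -5.18 to -0.44 (median -4.47), with 1 kidney at -0.44. In limma, severe against mild kidneys gave 3.12 (adjusted p = 0.126, measured means -3.86 and -6.98). Moderate against mild kidneys gave 2.03 (adjusted p = 0.696, measured means -4.95 and -6.98), and neither difference passed. Both rest on mild values that were not well above background, so mild kidneys give only an upper bound. The mean *Krt17* level lay 3.54-fold above this bound in severe and 1.66-fold above it in moderate kidneys, distances that were not tested. Only 4 of 6 severe and 4 of 5 moderate kidneys were well above background, so these folds are not strict lower limits. The bound takes, on each mild array, the larger of the probe's own value and the dimmest value that was well above background there. Severe against control kidneys gave 3.08 (SE 0.89, adjusted p = 0.0244) and was called, with control kidney 1 above 5 of the 6 severe kidneys. Since the other 5 control values were not well above background, the size of this difference is not well determined. Without control kidney 1 severe against control gave 3.95 (adjusted p = 0.00286) and severe against mild passed (adjusted p = 0.0272), while the call against control was lost without control kidney 2, control kidney 3 or severe kidney 5 (adjusted p 0.0519 to 0.0593). With normexp background correction, which draws dim values together, the change was 0.91 (adjusted p = 0.0362), under 2-fold, and in the authors' normalized table it was 0.83 (adjusted p = 0.177).

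*Krt13*, the keratin of intermediate cells, was dim but well above background on every array. It ran from -4.81 to -3.54 (median -4.16) in control, -4.37 to -3.05 (median -3.71) in mild and -2.74 to -0.87 (median -2.31) in severe kidneys, and the moderate kidneys had -2.55, -3.61, -3.40, -2.50 and -4.29. The severe kidneys lay above all control and all mild kidneys and overlapped the 2 highest moderate kidneys. The change in severe kidneys was 2.07 (SE 0.34, adjusted p = 0.000854) against control, or 4.19-fold, and 1.63 (SE 0.33, adjusted p = 0.0177) against mild. Mild and moderate kidneys differed from control by 0.44 (SE 0.33, adjusted p = 0.496) and 0.89 (SE 0.36, adjusted p = 0.191). Severe against mild lost its call without mild kidney 5, severe kidney 2 or severe kidney 5 (adjusted p 0.0561 to 0.0693), with normexp background correction (0.99, under 2-fold) and as the mean over both probes (0.97, adjusted p = 0.486). A second, much dimmer *Krt13* probe, well above background on 5 of 24 arrays, gave 0.68 (SE 0.83, adjusted p = 0.803) for severe against mild. *Krt4*, its usual type II partner, was well above background on 0 of 6 control and 3 of 6 severe kidneys. Its severe mean lay 1.71-fold above the upper bound of control kidneys, set as for *Krt17* (measured means -5.05 and -6.84). That mean includes severe kidneys not well above background, so the fold is not a strict lower limit. The limma call (adjusted p = 0.0267) likewise rests on control values that were not well above background.

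*Krt20*, the umbrella cell keratin, changed most against control. Its levels ran from -2.87 to -1.30 (median -1.69) in control, -2.09 to 1.48 (median -0.69) in mild and 0.54 to 5.01 (median 1.64) in severe kidneys, and the moderate kidneys had 2.39, 0.51, 1.76, 1.86 and -0.96. All moderate and severe kidneys were above all controls, as were 5 of the 7 mild ones. The change against control was 1.46 (SE 0.69, adjusted p = 0.227) for mild kidneys, 3.03 (SE 0.75, adjusted p = 0.0491) for moderate ones and 4.02 (SE 0.72, adjusted p = 0.00164) for severe ones, the last being 16.3-fold, and it was 2.75 (SE 0.72, adjusted p = 0.0158) over all mgb-/- kidneys. The call over all mgb-/- kidneys held in all 36 alternatives and that in severe kidneys in all 37, but that in moderate kidneys in 12 of 37. It was lost there when any 1 control kidney, moderate kidney 1, 3 or 4, severe kidney 1, 2 or 3, or any mild kidney other than 2 was left out (adjusted p 0.0518 to 0.187). Severe kidneys exceeded mild kidneys by 2.57 (SE 0.69, adjusted p = 0.115), which did not pass.

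*Krt19*, a type I keratin and the smallest of the family, ran from -0.82 to 1.25 (median 0.18) in control, 0.12 to 3.08 (median 0.91) in mild and 2.56 to 5.39 (median 3.74) in severe kidneys, and the moderate kidneys had 3.57, 2.14, 3.27, 4.13 and 0.92. The severe kidneys exceeded all controls, and 1 moderate kidney and 4 mild kidneys remained within the control range. It was higher than control by 2.57 (SE 0.61, adjusted p = 0.0419) in moderate and 3.63 (SE 0.58, adjusted p = 0.000613) in severe kidneys (12.4-fold), and higher by 2.55 (SE 0.56, adjusted p = 0.0347) in severe than in mild kidneys. In mild kidneys the difference was 1.08 (SE 0.56, adjusted p = 0.279). Over all mgb-/- kidneys it was 2.34 (SE 0.64, adjusted p = 0.019), a call that was lost only without control kidney 4 (adjusted p = 0.0552) among 36 alternatives. The call in severe against mild kidneys was lost without mild kidney 1, 5, 6 or 7 or severe kidney 1, 2 or 5 (adjusted p 0.0563 to 0.115), and that in moderate kidneys without control kidney 1, 2, 3, 4 or 6, mild kidney 6 or 7, or moderate kidney 1, 3 or 4 (adjusted p 0.0516 to 0.157).

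*Krt18*, the type I chain of simple epithelia, had levels of 3.21 to 4.65 (median 3.98) in control, 3.97 to 5.67 (median 4.52) in mild and 5.50 to 7.40 (median 6.28) in severe kidneys. The moderate kidneys were at 6.30, 4.73, 5.71, 6.34 and 3.86. Severe kidneys did not overlap control kidneys but overlapped 2 mild ones. *Krt18* was higher by 2.42 (SE 0.41, adjusted p = 0.0011) in severe than in control kidneys, or 5.37-fold, and by 1.77 (SE 0.40, adjusted p = 0.0413) in severe than in mild kidneys. Moderate and mild kidneys differed from control by 1.36 (SE 0.43, adjusted p = 0.106) and 0.66 (SE 0.40, adjusted p = 0.37). The call in severe against mild kidneys held in 19 of 37 alternatives and was lost without control kidney 1, 2, 3 or 6, mild kidney 1, 4, 5, 6 or 7, or severe kidney 1, 2 or 5 (adjusted p 0.0536 to 0.138). Over all mgb-/- kidneys *Krt18* was higher by 1.44 (SE 0.45, adjusted p = 0.035), and this call was lost without control kidney 1, 2, 3, 4 or 6 (adjusted p 0.0512 to 0.0946), as that of *Krt14* (2.10, SE 0.62, adjusted p = 0.0275) was without control kidney 2, 3, 4 or 5 (adjusted p 0.0531 to 0.0644).

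*Krt8*, the type II partner of *Krt18*, had the smallest change against control in severe kidneys. It ran from 3.11 to 3.68 (median 3.24) in control, 3.11 to 3.61 (median 3.35) in mild and 3.72 to 5.07 (median 3.87) in severe kidneys, and the moderate kidneys had 4.36, 3.26, 3.54, 4.49 and 3.28, with moderate kidneys 1 and 4 apart from the other 3. All severe kidneys were above all control and all mild kidneys. The difference between severe and control kidneys was 0.81 (SE 0.23, adjusted p = 0.021), or 1.75-fold, which passed the p threshold and not the 2-fold minimum. It was 0.74 (SE 0.22, adjusted p = 0.161) between severe and mild and 0.07 (SE 0.22, adjusted p = 0.912) between mild and control kidneys.

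*Krt7*, a type II keratin of ducts and urothelium, was higher in every mild kidney than in any control kidney. Control kidneys ran from 2.70 to 3.33 (median 3.10) and mild kidneys from 3.37 to 4.16 (median 3.73), without overlap. The moderate kidneys had 4.27, 3.14, 4.20, 4.39 and 3.41, and severe kidneys ran from 3.40 to 4.87 (median 4.37). *Krt7* was higher than control by 0.73 (SE 0.23, adjusted p = 0.0624) in mild kidneys, 0.80 (SE 0.25, adjusted p = 0.101) in moderate ones and 1.24 (SE 0.24, adjusted p = 0.00302) in severe ones (2.37-fold), of which the last was called. Over all mgb-/- kidneys the difference of 0.92 (SE 0.21, adjusted p = 0.00755) passed the p threshold but stayed under 2-fold. Severe and mild kidneys differed by 0.51 (SE 0.23, adjusted p = 0.418) and moderate and mild kidneys by 0.071 (SE 0.24, adjusted p = 1).

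Since the chains of a pair share a filament, the difference between partners within each array was compared. *Krt18* minus *Krt8* ran from 0.0029 to 1.12 (median 0.81) in control, 0.62 to 2.12 (median 1.17) in mild and 1.70 to 2.92 (median 2.37) in severe kidneys, and the moderate kidneys had 1.94, 1.48, 2.17, 1.85 and 0.57. The severe kidneys lay above all control kidneys and overlapped the 2 highest mild ones. In mgb-/- kidneys the mean difference was 1.73 ± 0.67 (SD, n = 18), against 0.73 ± 0.39 (SD, n = 6) in control kidneys, so that *Krt18* gained 1.01 on *Krt8* (two-sided exact permutation p = 0.00244, adjusted p = 0.00978 over 4 tests). Between severe and mild kidneys the gain was 1.03 (two-sided exact permutation p = 0.00524, adjusted p = 0.0105). Both passed when any 1 kidney was left out (adjusted exact permutation p 0.00313 to 0.0222 and 0.00652 to 0.0227).

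The differences of *Krt14* minus *Krt5* between groups did not pass. It ran from -3.92 to -1.51 (median -3.38) in control, -3.80 to -0.92 (median -2.42) in mild and -2.91 to -2.25 (median -2.70) in severe kidneys, with -2.86, -2.95, -2.76, -3.10 and -2.16 in the moderate kidneys. The groups overlapped. The change was 0.29 between mgb-/- and control kidneys (two-sided exact permutation p = 0.412, adjusted p = 0.55) and -0.038 between severe and mild kidneys (two-sided exact permutation p = 0.937, adjusted p = 0.937). The SD of the difference was 0.96 in control and 1.01 in mild kidneys, against 0.36 in moderate and 0.27 in severe kidneys. A difference within an array shows unequal change and says nothing of the amount of either chain.

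**Figure D3:**
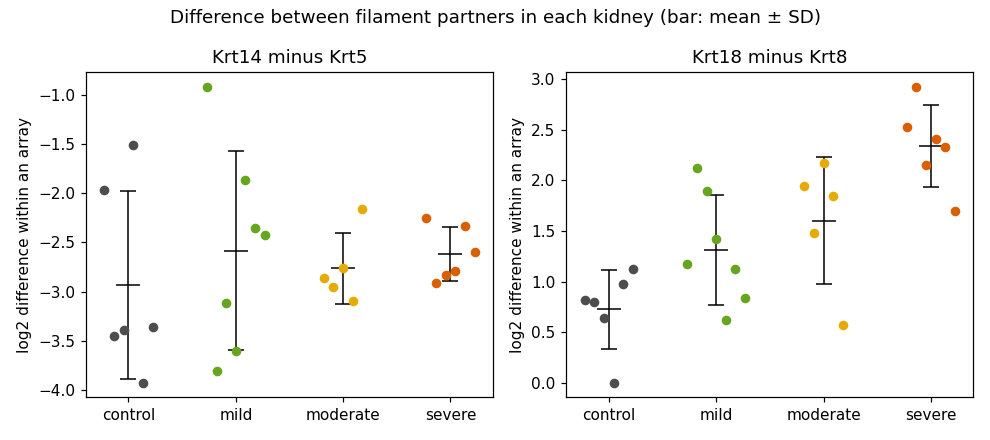
Per-kidney log2 difference between the type I and type II partner, *Krt14* minus *Krt5* on the left and *Krt18* minus *Krt8* on the right, in 6 control, 7 mild, 5 moderate and 6 severe kidneys, with the mean ± SD. *Krt18* minus *Krt8* has means of 0.73, 1.31, 1.60 and 2.34 in this order, and *Krt14* minus *Krt5* stays between means of -2.93 and -2.58.

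Over the 18 mgb-/- kidneys the levels of the keratins were correlated. *Krt15* was left out of the pooled correlations because its severe kidneys stand apart from all others. Of the other 36 pairs, from a family of 45 computed, every Pearson r was positive and passed at an adjusted permutation p under 0.05, from 0.54 (*Krt7* and *Krt17*) to 0.98 (*Krt5* and *Krt19*), with a median of 0.88. For *Krt5* and *Krt19*, Spearman's rho was 0.98 (permutation p = 1e-05 for r and 1e-05 for rho, the smallest that 100000 resamples can give; adjusted p = 2.14e-05 and 2.81e-05), and r was 0.98 without the 2 kidneys farthest from the median of *Krt5*. The basal partners *Krt5* and *Krt14* had r = 0.93 and rho = 0.94 (adjusted permutation p = 2.14e-05 and 2.81e-05), and r = 0.96 without the 2 kidneys farthest from the median of *Krt5*. The simple-epithelium partners *Krt8* and *Krt18* had r = 0.88 and rho = 0.89 (adjusted permutation p = 2.14e-05 and 2.81e-05), and 0.88 without the 2 kidneys farthest from the median of *Krt8*. After each kidney was centred on the mean of its grade, the median r of the 36 pairs was 0.81, and 35 of 36 still passed. Within the slides, of 6 mgb-/- kidneys each, all 36 pairs were positive on each of the 3 slides. All levels were scaled to the same array percentile, which these pairs share.

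**Figure D4:**
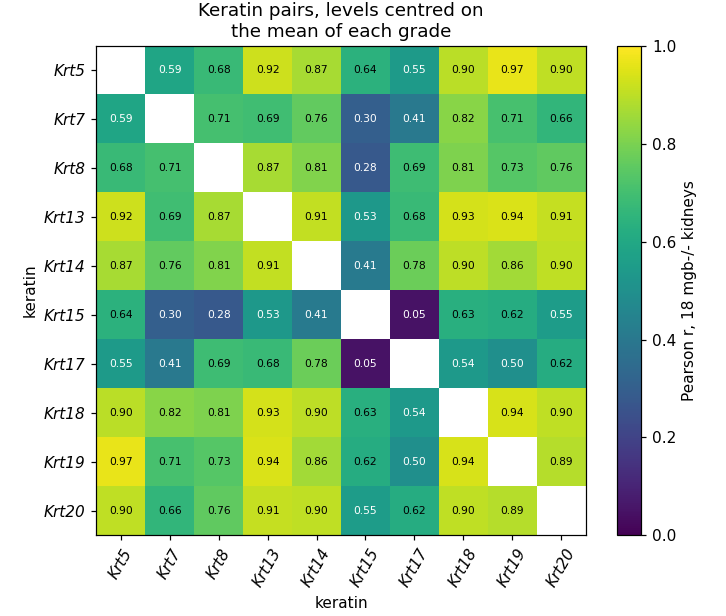
Pearson r between each pair of keratins over 18 mgb-/- kidneys after the mean of the grade was taken from each level, with both axes listing the 10 keratins and colour running from 0 to 1. *Krt5*, *Krt13*, *Krt14*, *Krt18*, *Krt19* and *Krt20* hold values from 0.86 to 0.97 among themselves, and *Krt15* with *Krt17* holds the lowest, 0.05.

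For *Krt15* the correlations were computed apart for the severe kidneys and for the 12 mild and moderate ones, with 12 relations each. Over the mild and moderate kidneys r ran from 0.26 (*Krt7*) to 0.84 (*Krt5*), and 6 of the 9 keratins passed at an adjusted permutation p under 0.05 for r. With *Krt5*, rho was 0.71 (adjusted permutation p = 0.00724 for r and 0.0306 for rho), and r was 0.80 without the 2 kidneys farthest from the median of *Krt15*. With *Upk3a*, a uroplakin of the umbrella cell plaque, r was 0.85 and rho 0.76 (adjusted permutation p = 0.00724 and 0.0306), and r was 0.83 without the 2 farthest. Over the 6 severe kidneys r with the other keratins ran from -0.28 (*Krt17*) to 0.40 (*Krt7*), and none of the 12 relations passed (lowest exact permutation p = 0.128). The r of 0.83 between *Krt15* and *Upk3a* there (exact permutation p = 0.128) rested on severe kidney 2, which had the highest level of both, and rho was 0.086 (exact permutation p = 0.919). The highest severe values of *Krt5*, *Krt8*, *Krt13*, *Krt14*, *Krt17*, *Krt18*, *Krt19* and *Krt20* were all in severe kidney 5, and those of *Krt7* and *Krt15* in severe kidney 2. Severe kidney 5 also had the highest *Lcn2* of the severe group (5.48), a secreted protein of injured tubules.

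Beside the markers, over all 18 mgb-/- kidneys and in a family of 30 relations, *Upk3a* correlated with *Krt19* at r = 0.90 and rho = 0.85 (adjusted permutation p = 6e-05 and 8.57e-05) and with *Krt14* at r = 0.79 and rho = 0.84 (adjusted permutation p = 0.00025 and 6e-05). Without the 2 kidneys farthest from the median of the keratin, r was 0.85 and 0.80. Centred on the grades, r was 0.80 (adjusted permutation p = 0.0003) for *Krt19* and 0.47 (adjusted permutation p = 0.0817) for *Krt14*. Within the 3 slides, r with *Upk3a* was 0.93, 0.91 and 0.86 for *Krt19* and 0.79, 0.82 and 0.91 for *Krt14*. *Aqp2*, the water channel of principal cells, passed with *Krt7* alone of the 9 keratins other than *Krt15*, at r = 0.51 and rho = 0.44 (adjusted permutation p = 0.0417 and 0.1), and did not pass without the 2 kidneys farthest from the median of *Krt7* (r = 0.41, adjusted permutation p = 0.168). Centred on the grades it passed, at r = 0.59 (adjusted permutation p = 0.0186). It was -0.095, 0.69 and 0.90 within the 3 slides.

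*Lcn2* divided the mgb-/- kidneys into 14 with levels up to 2.05 and 4, of which 3 were moderate and 1 severe, with levels from 4.29 to 6.59, so no pooled r is given. Over the 14 kidneys below the gap, which span the 3 grades, *Lcn2* correlated with each of the 9 keratins other than *Krt15*. The lowest r was 0.58 with rho = 0.59 for *Krt17* (adjusted permutation p = 0.0351 and 0.0306 over 10 relations), and the highest was 0.85 with rho = 0.88 for *Krt13* (adjusted permutation p = 0.00115 and 0.0005). Without the 2 kidneys farthest from the keratin's median, r was 0.73 and 0.78. Within these 14 kidneys *Lcn2* split again, with severe kidneys 1, 2, 4 and 6 and mild kidney 2 at 1.27 to 2.05. All others lay from -1.16 to -0.05. The r values therefore cannot tell a step between these sets from a relation within them, which was not computed. *Krt15* also passed over these 14 kidneys, at r = 0.76 and rho = 0.78 (adjusted permutation p = 0.00308 and 0.00258), but its severe kidneys stand apart there. Taken apart by grade as above, *Krt15* and *Lcn2* had r = -0.26 and rho = 0.029 over all 6 severe kidneys (exact permutation p = 0.432 and 1). Over all 12 mild and moderate ones r was 0.44 and rho 0.45 (adjusted permutation p = 0.211 and 0.178), and neither set passed. Both sets hold kidneys from above the *Lcn2* gap, so neither value describes the 14 kidneys below it. The split by *Lcn2* was made after the levels were seen. The 4 kidneys with high *Lcn2* were moderate kidneys 1, 3 and 4 and severe kidney 5, which held the 3 highest moderate values and the highest severe value of *Krt14*, *Krt19*, *Krt5* and *Krt20*.

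**Figure D5:**
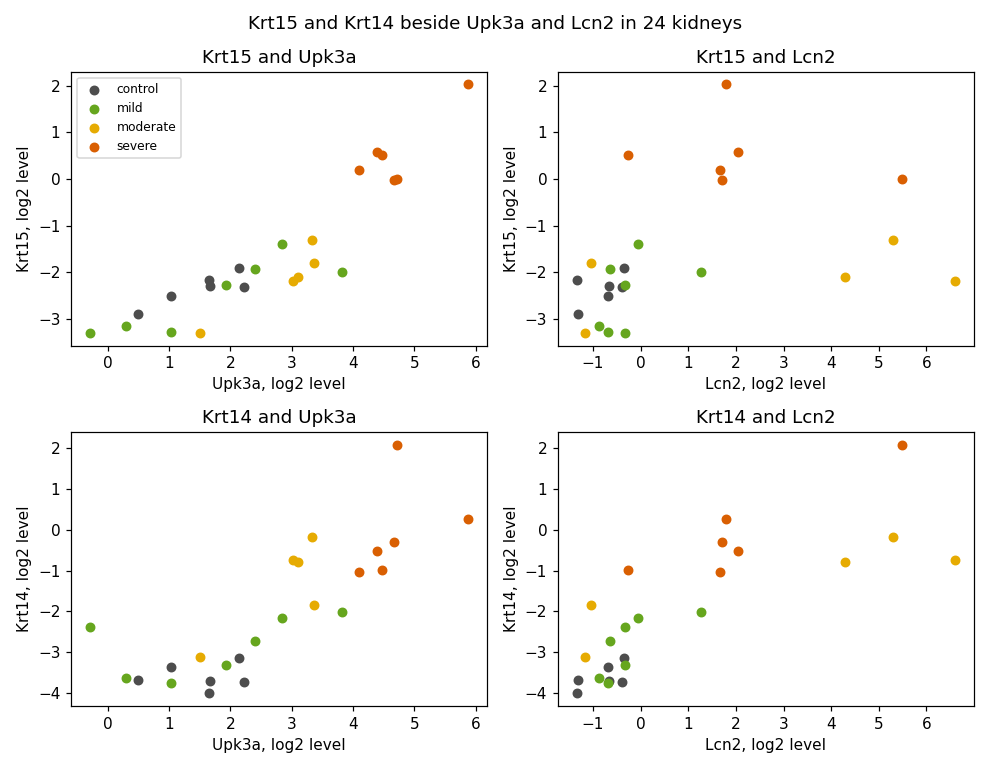
Log2 levels of *Krt15* (top) and *Krt14* (bottom) against *Upk3a* (left) and *Lcn2* (right) in all 24 kidneys, coloured by group. The 6 severe kidneys form a separate group in *Krt15*, and the 4 kidneys with *Lcn2* above 4 do not stand out in *Krt15*.

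Markers of other cells and layers moved beside the keratins in severe kidneys. Of all genes tested, 2.99% were called higher in severe against control kidneys, 0.454% in severe against mild and 0.232% for the slope. Of 8 urothelial markers, 7 were called higher in severe against control kidneys and 6 in severe against mild, with median changes of 3.18 and 2.78, and 6 passed the slope. Among them, *Upk1b*, a plaque protein, was higher than control by 3.84 (SE 0.54, adjusted p = 0.000177) and *Grhl3*, a transcription factor of the surface layer, by 3.72 (SE 0.48, adjusted p = 0.000111). *Trp63*, the transcription factor of basal cells, differed by -0.071 (SE 0.18, adjusted p = 0.827), with a 95% interval of -0.45 to 0.31. The summed level of the 8 urothelial markers, on the linear scale relative to the array's 75th percentile, ran from 15.5 to 27.8 in control kidneys, 15 to 65.1 in mild ones, 23.7 to 54.2 in moderate ones and 79.9 to 248 in severe ones, and was higher in each severe kidney than in any other. All 8 were well above background on all 24 arrays. The part of the amount of urothelium in the keratin levels was not tested.

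Some markers of smooth muscle and mesothelium were also called. Of all genes tested, 1.82% were called higher over all mgb-/- kidneys and 0.454% in severe against mild. Against control, 2.99% were called higher in severe and 1.15% in mild kidneys, and 483 of 27971 were called lower in severe ones. *Tagln* and *Acta2*, genes of the smooth muscle actin cytoskeleton, were higher over all mgb-/- kidneys by 1.28 (SE 0.30, adjusted p = 0.00842) and 1.20 (SE 0.34, adjusted p = 0.0223), 2 of 5 smooth muscle markers called. The summed level of the 5 ran from 14.5 to 27.5 in control kidneys and from 35.7 to 108 in severe ones. *Msln* and *Upk3b*, which mark mesothelium, were higher in severe than in mild kidneys by 2.33 (SE 0.42, adjusted p = 0.0087) and 1.88 (SE 0.43, adjusted p = 0.0466), while *Wt1*, the third marker tested, differed by -0.53 (SE 0.21, adjusted p = 0.344). The summed level of the 3 ran from 2.41 to 3.78 in control kidneys and from 5.45 to 21.1 in severe ones. Among 6 injured tubule markers, *Spp1* alone was called, over all mgb-/- kidneys (1.06, SE 0.35, adjusted p = 0.0443), and the summed level ran from 82.6 to 106 in control kidneys, 81.1 to 548 in moderate ones and 68 to 420.5 in severe ones. Of 6 proximal tubule markers, *Slc5a2* was called lower in severe against control kidneys (-1.16, SE 0.34, adjusted p = 0.027), with summed levels of 828 to 1041 in control kidneys and 199.8 to 939.6 in severe ones. *Aqp2* was called in severe (1.03, SE 0.29, adjusted p = 0.023) and in mild (1.09, SE 0.28, adjusted p = 0.0257) against control kidneys, 1 of 6 principal cell markers. In severe against control kidneys, 0 of 5 thick limb and distal tubule markers and 0 of 5 leukocyte markers were called by limma, and 1 and 0 had an unadjusted p under 0.05. The part of these cells in the keratin changes was not tested.

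Of the other genes of the keratin cytoskeleton, a part was called. Beside them, 1.82% of all genes were called higher over all mgb-/- kidneys. The share was 0.454% in severe against mild and 2.99% in severe against control kidneys. Of 11 further epithelial keratins tested, 1 was called over all mgb-/- kidneys and in severe against mild, and 3 in severe against control kidneys, with a median change of 0.48 in the last. The gene called in each was *Krt42*, a type I keratin that lies next to *Krt17*, higher by 2.13 (SE 0.61, adjusted p = 0.0247) over all mgb-/- kidneys and 2.40 (SE 0.55, adjusted p = 0.043) in severe against mild. *Krt23* and *Krt4* were the others in severe against control kidneys. *Krt4* passed the detection filter through mgb-/- kidneys alone, with 0 of 6 control kidneys well above background. *Krt10*, a type I keratin of suprabasal cells, had a log2 change of -0.58 (SE 0.14, adjusted p = 0.0112) over all mgb-/- kidneys, under the 2-fold minimum, and *Krt6a*, a usual partner of *Krt17*, was well above background on 6 of 24 arrays, of which 3 were controls. Of the 10 desmosome and plakin genes tested, *Pkp1*, a desmosomal plaque protein of stratified epithelia, was higher by 1.99 (SE 0.65, adjusted p = 0.0456) over all mgb-/- kidneys and 2.99 (SE 0.46, adjusted p = 0.00338) in severe against mild, and *Dsg2*, the desmoglein of simple epithelia, by 1.07 (SE 0.23, adjusted p = 0.00548) over all mgb-/- kidneys. With *Ppl*, 3 of the 10 were called in severe against control kidneys, and the median of the list was 0.36. Among the genes of hemidesmosomes, which anchor basal cells, *Itgb4*, an integrin chain, was called in severe against control kidneys, higher by 1.36 (SE 0.32, adjusted p = 0.0104). Of 9 intermediate filament genes other than keratins, limma called 0 in severe against control kidneys and 2 had an unadjusted p under 0.05. Vimentin (*Vim*), the filament of mesenchymal cells, gave 0.75 (SE 0.33, adjusted p = 0.122).

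Of 6 cornified epidermis markers tested, *Ivl* (involucrin), a protein of the envelope of stratified cells, was called, higher by 3.79 (SE 0.78, adjusted p = 0.00431) over all mgb-/- kidneys, and against control by 2.33 (SE 0.66, adjusted p = 0.0395) in mild kidneys, 3.74 (SE 0.72, adjusted p = 0.0197) in moderate ones and 5.55 (SE 0.69, adjusted p = 8.67e-05) in severe ones. In these comparisons 1.82%, 1.15%, 0.529% and 2.99% of all genes were called higher. The median of the cornified list was -0.028 in severe against control kidneys, and *Flg* and *Krt1*, which define cornified epidermis, did not pass the detection filter.

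The genes whose levels were most like each keratin over the 18 mgb-/- kidneys, among the named genes outside the set, were taken by Pearson r as a description. *Krt42* came first for *Krt19* (r = 0.995) and *Krt5* (r = 0.985), and it was among the 3 nearest of *Krt20* and *Krt18*. *Krt7* was nearest to *Krt81* (r = 0.974), another type II keratin, *Krt14* to *S100a14* (r = 0.972), and *Krt20* to *Ttc39a* (r = 0.962). *Krt18* was nearest to *Hebp2* (r = 0.968). Both *Krt8* (r = 0.935) and *Krt13* (r = 0.961) were nearest to the protease gene *Prss22*. The genes nearest to *Krt15* were *Fam25c*, *Gsdmc* and *Arhgap40* (r = 0.959, 0.952 and 0.949), none of which was among the 3 nearest of another keratin, and *Krt17* reached no more than r = 0.903 with *S100a11*. Whether the probes of *Krt19* and *Krt42* also bind each other's transcript was not tested.

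The values were also taken slide by slide. Within each of the 3 slides, every keratin was higher in mgb-/- than in control kidneys and higher in severe than in mild kidneys, in 30 of 30 values for each contrast. The keratins are correlated and are not replicates of each other, so these values are not independent. The slides held 1, 2 and 3 severe kidneys beside 3, 2 and 2 mild ones, and 2 control kidneys each. The mgb-/- minus control difference ran over the slides from 2.39 to 3.47 for *Krt20*, 1.76 to 3.10 for *Krt19*, 1.93 to 2.29 for *Krt14*, 1.26 to 2.83 for *Krt5* and 0.95 to 1.91 for *Krt18*. It ran from 0.62 to 1.26 for *Krt15*, 0.94 to 1.38 for *Krt13*, 0.63 to 1.23 for *Krt7* and 0.29 to 0.63 for *Krt8*. For *Krt17* it ran from 0.079 to 2.44, with the lowest value on the slide that held control kidney 1.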

How the data were processed

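Single-dye (Cy3) Agilent arrays of total RNA from 24 whole kidneys were used. The values are the intensities the authors deposited from Agilent Feature Extraction (version 10.10 in the submitters' processing notes), in which background is already subtracted from each spot. The authors' normalized table, put on the log2 scale here, served as an alternative only. Outlier spots were dropped, spots of a probe averaged, log2 values reduced by the 75th percentile of the array, and probes kept that were well above background on at least 5 arrays (38848 of 55681). Accessions of 26762 probes matched RefSeq (GRCm38.p6), and the brightest probe stood for a gene. An accession without a match was itself counted as a gene. Linear models and moderated tests were run with limma 3.58.1 in R 4.3.3 over 27971 genes, with Benjamini-Hochberg adjustment over all of them. For 324 genes a value was missing on at least 1 array, and their fits drop those arrays. The all mgb-/- comparison was fitted with 2 groups, the grades with 4 groups that share 1 estimate of the spread, and the slope on the 18 mgb-/- kidneys. Correlations used 100000 resamples, or all orders for 6 kidneys. The scripts were tested on simulated data.

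The keratins and gene lists were chosen with earlier results of these data known. All 10 keratins were named, as were their partners, and of the other lists up to 4 genes called over all mgb-/- kidneys or in severe against mild. The genes called in severe against control kidneys alone, *Vim*, *Wt1*, and the correlations of *Krt15* and *Lcn2* inside separate sets of kidneys were added after the values were seen. A few results are not reported here. RefSeq promoters were used for 7 of the 10 keratins. Replicate numbers were not taken to pair the kidneys, since the labels name no pairs. Over 33 pairs of like-numbered kidneys, deviations from group means correlated at -0.548 to 0.646 (median 0.0046), with 10 pairs over 0.1. Like-numbered control, mild and moderate kidneys also shared a slide, so pairing is not settled by these values. The number of arrays limits the precision. Alternatives in normalization, background, filter, probe, slide, weights, threshold and kidneys were run.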

Additional observations from a re-analysis of the deposited data

Results flagged for a closer look

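In 3 of 48 sets of values (a gene or partner difference in a group of kidneys) 1 kidney stood far from the others of its group by Dixon's test at the 95% level, which chance gives in about 1 of 20 sets. Severe kidney 2 had a *Krt15* level of 2.03, where the next severe kidney had 0.57. Control kidney 1 had a *Krt17* level of -2.56, well above background, where the next control kidney had -7.54. Severe kidney 5 had a *Krt17* level of -0.44, where the next severe kidney had -3.87, and this kidney also held the highest severe values of 7 other keratins. The cause of these values was not tested.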

How the results depend on the processing

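The calls of *Krt5*, *Krt7*, *Krt13*, *Krt14*, *Krt15*, *Krt18*, *Krt19* and *Krt20* in severe against control kidneys held in all 37 alternatives, and that of *Krt20* over all mgb-/- kidneys in all 36. The counts of keratins called in moderate against control, severe against mild, severe against moderate kidneys and for the slope were 3, 5, 1 and 2, and became 0, 2, 0 and 0 with arrays scaled by their median and 1, 3, 0 and 0 with slide fitted as a block. Of all 27971 genes, 148, 127, 1 and 65 were called higher in these comparisons. They became 65, 89, 0 and 0 with the median and 102, 99, 0 and 0 with the slide block. A fit with a replicate block, although the labels name no pairs, called 0 in moderate against control, 1 in severe against mild and 0 for the slope. Of all genes, it called 15, 51 and 0 higher there. In the fit of the compared groups alone, moderate against control called 1, severe against mild 0 and severe against moderate 0. Of all genes, 101, 0 and 0 were called higher in that fit, so the last 2 counts are not particular to keratins. Without a filter on dim probes, moderate against control called 0 keratins, beside 72 of the 37147 genes then tested called higher. Array quality weights called 1 in mild against control, 5 in moderate against control and 4 for the slope, and an adjusted p under 0.1 called 5 for the slope. Of all genes, the weights called 621, 661 and 85 higher there, and the adjusted p under 0.1 called 116 for the slope. When 1 kidney was left out, the counts ran from 1 to 5 for all mgb-/- kidneys, 0 to 5 in moderate against control, 8 to 9 in severe against control, 2 to 6 in severe against mild, 0 to 1 in severe against moderate and 0 to 5 for the slope, and stayed at 0 in mild against control and moderate against mild. All 36 keratin pairs passed in the pooled kidneys, and 4, 30 and 5 within the slides of 6 mgb-/- kidneys each. Of 18 relations with *Upk3a* and *Aqp2*, 10 passed, 6 after centring on the grade and 3, 1 and 0 within the slides. Among values of single genes, 2673 alternatives kept the direction and the side of the threshold, 148 lost and 36 gained the call, and 15 reversed, none of them a called value. Against control, mild *Krt15* turned to 0.0072 with the replicate block and ran from -0.31 to 0.011 without 1 kidney, mild *Krt17* ran from -0.27 to 0.83 without 1 kidney, and mild *Krt8* turned to -0.078 with arrays scaled by their median. In moderate against mild, *Krt13* turned to -0.24 as the mean over probes, and *Krt7* to -0.023 with the replicate block and ran from -0.056 to 0.26 without 1 kidney. *Krt14* minus *Krt5* in severe against mild ran from -0.24 to 0.24 without 1 kidney. Leaving out a kidney for the partner differences was chosen after seeing the data. With arrays scaled by their median, genes called higher and lower were 178 and 345 in mild and 65 and 90 in moderate against control, in place of 321 and 297, and 148 and 56. The causes were not tested. Signal over background limits *Krt17* and *Krt4*, which had no level well above background in most control kidneys.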
